A study of Mus musculus with 6 samples.

Results

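The 10 genes described here encode proteins that coat, grow, build and empty the lipid droplets of the liver cell. They were taken by name as Plin2, Plin3, Plin4, Plin5, Cideb, Cidec, G0s2, Pnpla2, Pnpla3 and Dgat2, out of 55487 genes in the deposited tables, and all 10 had enough reads to be tested. Their RNA was read by sequencing in primary mouse hepatocytes that had been isolated, cultured and left untreated. The Alb/MDA-9 group held 3 libraries from mice that express human MDA-9/SDCBP (syntenin, a PDZ adaptor protein) in liver, tagged with HA at its C terminus and driven by a mouse albumin enhancer and promoter. The WT group held 3 libraries from littermates without the transgene. Both groups had the B6CBAF1 background and regular chow, and the labels give neither age nor sex, nor whether a library stands for a separate animal or culture. P-values therefore rest on how far libraries of a group differ, which may in part be technical.

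Triglyceride, the storage form of fatty acids, is held in the hepatocyte in droplets with a core of neutral lipid under a shell of phospholipid and protein. Acyltransferases such as DGAT2 make the triglyceride, perilipins sit on the droplet surface and govern which lipases reach it, CIDE proteins let droplets exchange lipid and grow, and the lipase ATGL, the product of Pnpla2, begins its breakdown. Fat in the hepatocyte is the mark of fatty liver, and Plin2 is the perilipin best known for following the fat content of liver cells.

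Libraries held 16403918 to 19046739 reads on the annotated strand of genes. In CPM (counts scaled to library size), 3 reads, the limit that a count of 0 allows, stood for 0.158 to 0.183. These limits use library totals, without the TMM scaling of the levels given below. Such limits cover counting error only. Of 13296 genes tested for a difference between the genotypes, 977 were higher and 943 lower in Alb/MDA-9 (7.35% and 7.09%), or 14.4% in all. A call means an adjusted p under 0.05 in the quasi-likelihood test of edgeR. The number called was 1131 without Alb/MDA-9 2, 1168 without WT 1 and 1018 without WT 2. On the second principal component, with 16.98% of the variance, Alb/MDA-9 3 lay far from the remaining 5 libraries. The 10 hepatocyte markers summed to 83053 to 97489 CPM in Alb/MDA-9 libraries and 78443 to 81844 CPM in WT libraries. Of these markers, 2 were called higher and 2 lower. Most of each sum was Alb, which was not called. Alb had 70170, 63917 and 55090 CPM in Alb/MDA-9 1 to 3, against 58379, 57188 and 54048 CPM in WT 1 to 3. The hepatocyte sums therefore do not give the level of the other markers. The lowest of the 10 was Cps1, called lower, at 88.4 ± 11.3 CPM in Alb/MDA-9 and 171 ± 5.88 CPM in WT (SD, n = 3 each). Whether a group shares segments of a parental strain, and whether its cultures held other shares of cell types, cannot be told apart from an effect of the transgene.

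Of the 10 storage genes, 2 were higher in Alb/MDA-9 (Plin2 and Cideb), 1 was lower (Dgat2) and 7 did not pass the test. These 3 calls are 30% of the members, against 14.4% of all genes tested, 7.35% called higher and 7.09% called lower. Members and the lists below were chosen with earlier results of these data known. Their shares are therefore descriptions, and no difference from the share of all genes was tested. The libraries of the genotypes did not overlap for 6 members, against 33.6% of all genes tested. Of the 6, Plin2, Cideb, Pnpla2 and Pnpla3 had the Alb/MDA-9 libraries above the WT libraries, and Plin5 and Dgat2 had them below. The median log2 change of the 10 was 0.12, beside -0.0015 for all genes tested, and the changes ran from -0.36 to 0.72. That median was not stable. It was 0.0085 at a minimum count of 50, where Pnpla3 was not tested, 0.026 without WT 1 and 0.18 without Alb/MDA-9 3. None of the 10 was called when tested against a fold of 1.5, and the number called was 2 with library totals, with unstranded counts or without WT 3.

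**Figure D1:**
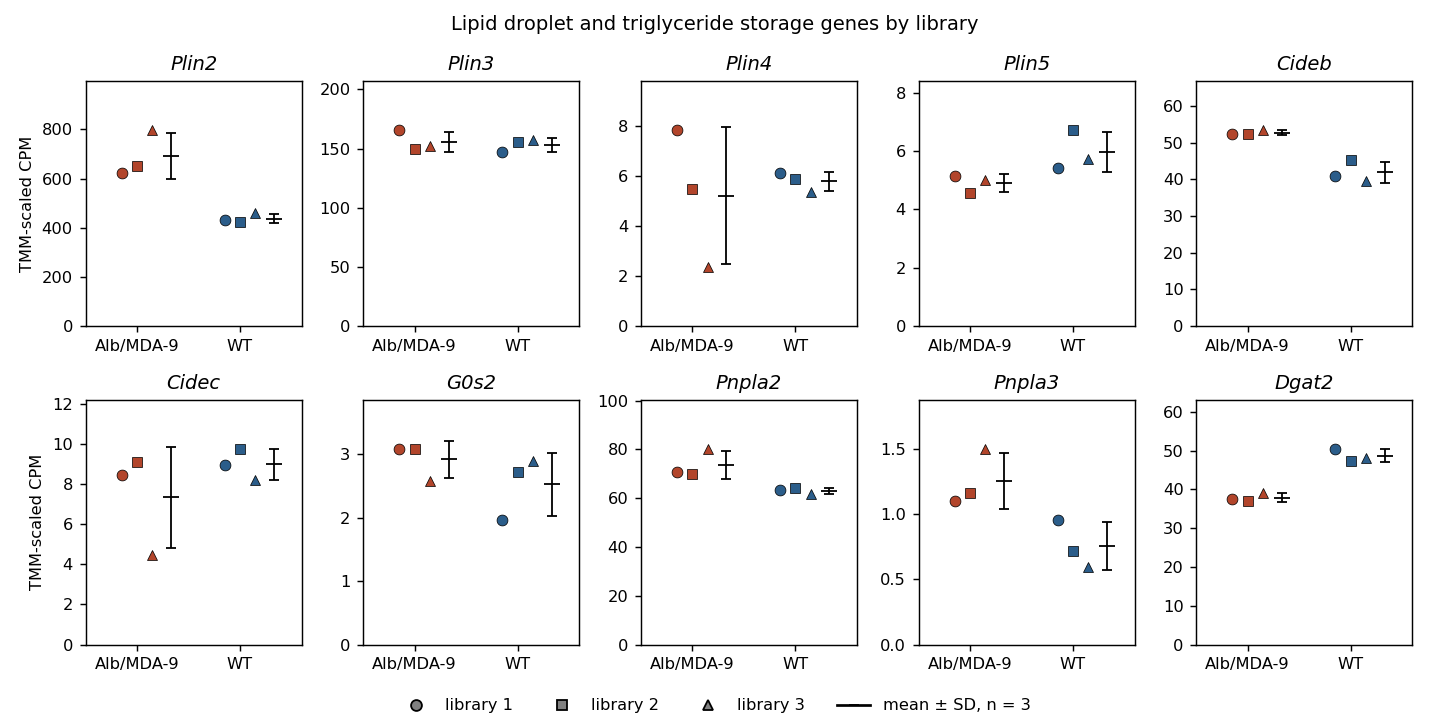
TMM-scaled CPM (vertical axes, each from 0) of the 10 genes in every library, with Alb/MDA-9 on the left and WT on the right of each panel; symbols mark the libraries and the bars the mean ± SD of 3. All 3 Alb/MDA-9 libraries lie above all 3 WT libraries for Plin2, Cideb, Pnpla2 and Pnpla3 and below them for Plin5 and Dgat2, and Alb/MDA-9 3 is the lowest library for Plin4 and Cidec.

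Among the perilipins, only Plin2 was called. Plin2 (ENSMUSG00000028494, chromosome 4, 86648386 to 86670060, minus strand, on GRCm38) encodes adipophilin, the main coat protein of hepatocyte droplets. It stood at 621, 652 and 797 CPM in Alb/MDA-9 1 to 3, against 430, 423 and 460 CPM in WT 1 to 3. Every Alb/MDA-9 library was above every WT library, and Alb/MDA-9 3 was the highest of the 6. The means were 690 ± 94.1 CPM in Alb/MDA-9 and 437 ± 19.6 CPM in WT (SD, n = 3 each), a fold of 1.58 (log2 change 0.66, SE 0.09, edgeR adjusted p = 0.00058). Without Alb/MDA-9 3 the log2 change was 0.54 (edgeR adjusted p = 4.41e-05). Plin2 had 35688 reads over the Alb/MDA-9 libraries and 24530 over the WT libraries, the deepest count among the 10 genes. An unprocessed pseudogene on the same chromosome, Gm12551, matches a Plin2 transcript at 96.1% over 259 bases and had 0 reads in all 6 libraries.

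Plin3 (ENSMUSG00000024197, chromosome 17, 56277476 to 56292873) encodes TIP47, a perilipin that moves between the cytosol and young droplets. It had 166, 150 and 152 CPM in Alb/MDA-9 1 to 3, against 147, 156 and 158 CPM in WT 1 to 3. The genotypes overlapped, and the log2 change was 0.02 with a 95% interval of -0.13 to 0.18 (edgeR adjusted p = 0.866). That interval leaves out a change of the size seen for Plin2, whose own interval was 0.46 to 0.86. The sign of the Plin3 change turned to -0.02 with upper-quartile factors and to -0.08 with library totals.

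The windows around the RefSeq starts of Plin2, which rose, and of its paralogue Plin3, which did not pass, are shown because both encode droplet coats. That of Cideb, the other gene that rose, is shown with them. Each is a RefSeq window of 300 bases on GRCm38.p6, with 250 before and 50 after the start, written on the gene's own minus strand at chr4:86670010-86670309, chr17:56290462-56290761 and chr14:55758375-55758674. The Plin3 window lies inside the gene coordinates given above, which end at 56292873. Its RefSeq start is thus downstream of the outermost start in those coordinates. Capitals mark matches, on either strand, to AGGTCA (the element that nuclear receptors bind), to CACGTG (the E-box), to CCAAT (the box bound by the factor NF-Y), to TATAAA (the core element near many starts) and to TTCNNNGAA (the STAT element).
Plin2: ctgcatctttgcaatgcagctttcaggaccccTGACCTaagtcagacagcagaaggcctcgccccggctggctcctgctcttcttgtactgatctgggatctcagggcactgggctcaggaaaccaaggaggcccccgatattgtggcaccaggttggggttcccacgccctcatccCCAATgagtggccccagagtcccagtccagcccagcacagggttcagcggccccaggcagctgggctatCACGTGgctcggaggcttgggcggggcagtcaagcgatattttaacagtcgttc
Plin3: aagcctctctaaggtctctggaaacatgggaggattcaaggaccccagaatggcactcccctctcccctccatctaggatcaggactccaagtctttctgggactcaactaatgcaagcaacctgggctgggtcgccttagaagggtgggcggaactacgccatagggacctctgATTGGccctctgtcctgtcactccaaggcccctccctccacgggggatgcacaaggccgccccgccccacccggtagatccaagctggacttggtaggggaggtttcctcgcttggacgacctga
Cideb: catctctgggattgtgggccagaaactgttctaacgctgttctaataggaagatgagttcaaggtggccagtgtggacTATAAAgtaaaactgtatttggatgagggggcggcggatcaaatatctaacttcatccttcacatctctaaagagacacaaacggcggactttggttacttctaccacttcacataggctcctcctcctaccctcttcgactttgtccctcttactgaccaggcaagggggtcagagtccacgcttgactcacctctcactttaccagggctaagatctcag
With positions counted from the start, the Plin2 window held an E-box at -4, a motif found in 7.15% of 32851 RefSeq promoter windows. It also held a TGACCT, the reverse complement of AGGTCA, at -218 (16.3% of windows hold AGGTCA on either strand), and a CCAAT at -73 (37.4% of windows). The Plin3 window held ATTGG, the reverse complement of CCAAT, and the Cideb window a TATAAA at -172 (13.6% of windows). The exact direct repeat AGGTCANAGGTCA, the consensus element of PPAR and RXR, was in none of the windows of the 9 members that had an entry. It was in 0.0396% of all windows, so rare that its absence from the members' windows carries little information. Variants of the repeat and sites outside the 300 bases were not searched. TTCNNNGAA, in 8.3% of all windows, was in none of the members' windows either. These matches describe letters and do not show binding.

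Plin4 and Plin5 lie 1797 bases apart on chromosome 17, and Plin3 lies 159879 bases beyond Plin5. Plin4, which encodes the perilipin S3-12 known from adipocytes and muscle, had 7.85, 5.47 and 2.35 CPM in Alb/MDA-9 1 to 3, against 6.11, 5.90 and 5.38 CPM in WT 1 to 3. The Alb/MDA-9 libraries held both the highest and the lowest value, the lowest being Alb/MDA-9 3 with 39 reads. The log2 change was -0.14 (SE 0.31, edgeR adjusted p = 0.808), and it was 0.20 without Alb/MDA-9 3. Plin4 overlaps exons of Hdgfl2 on the other strand, and 7.67% of the stranded reads at Plin4 were on that strand.

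Plin5, the perilipin of oxidative tissues that tethers droplets to mitochondria, had 5.14, 4.54 and 4.997 CPM in Alb/MDA-9 1 to 3, against 5.40, 6.72 and 5.74 CPM in WT 1 to 3. All Alb/MDA-9 libraries lay below all WT libraries, by a small margin. The log2 change was -0.28 with a 95% interval of -0.67 to 0.10 (edgeR adjusted p = 0.324), from 254 reads in Alb/MDA-9 and 335 in WT. Plin1, the perilipin of adipocytes, had 2 reads over the Alb/MDA-9 libraries and 1 read over the WT libraries.

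Per kilobase of exon, which allows levels to be compared between genes, Plin2 made up most of the perilipin signal. Its share of the summed CPM per kb of Plin2 to Plin5 was 78.8%, 81.3% and 84.1% in Alb/MDA-9 1 to 3, against 74.3%, 72.6% and 74.3% in WT 1 to 3. The shares did not overlap, and Plin3 held most of the rest, with 17.2% ± 2.32 in Alb/MDA-9 and 24.0% ± 0.723 in WT (SD, n = 3 each). Plin4 and Plin5 together stayed under 3% in every library. Such ratios, 6 in all, were compared by an exact two-sided permutation test, which with 3 libraries against 3 cannot go below p = 0.1. The Plin2 share reached that p (adjusted over the 6 ratios, exact permutation p = 0.15), as did the ratio of Plin2 to Plin5 per kb, at 84.0 ± 11.5 in Alb/MDA-9 and 44.1 ± 5.80 in WT (SD, n = 3 each).

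**Figure D2:**
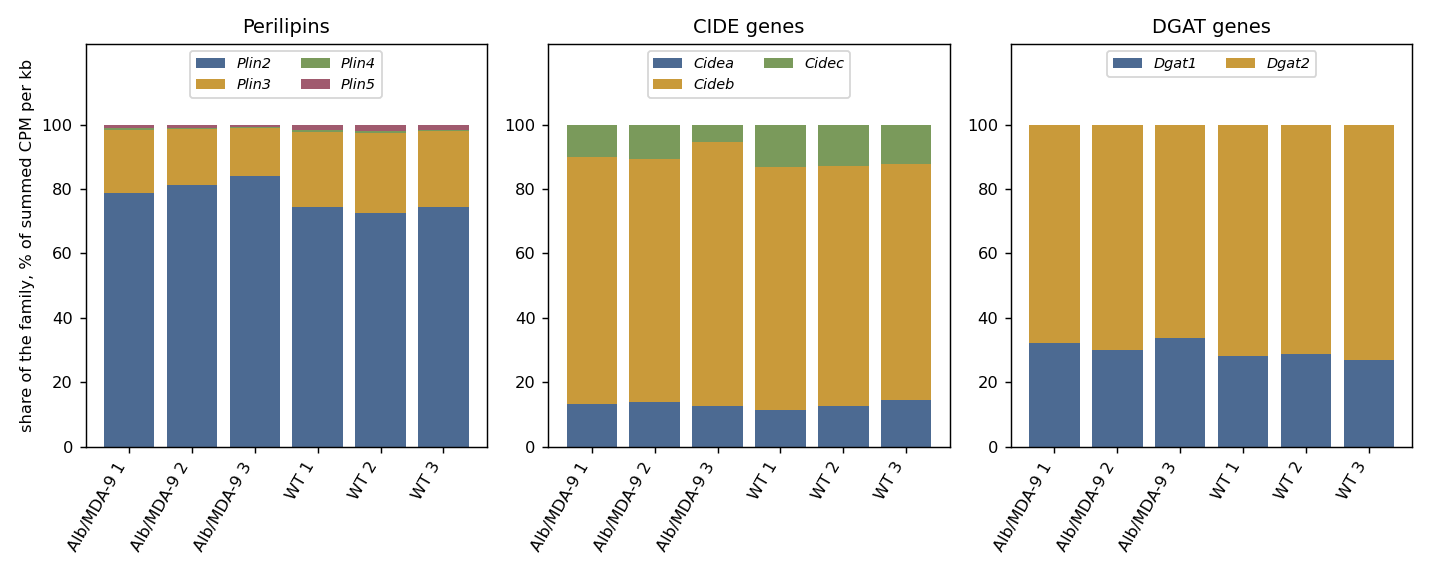
Share of each family member in the summed CPM per kb of its family (vertical axis, %), one stacked bar for each library, Alb/MDA-9 1 to 3 left of WT 1 to 3, for the perilipins, the CIDE genes and the DGAT genes. Plin2 takes 78.8% to 84.1% of the perilipin sum in Alb/MDA-9 and 72.6% to 74.3% in WT; Cidec is smallest in Alb/MDA-9 3 and Dgat2 holds most of the DGAT sum in every library.

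Of the CIDE genes, whose proteins gather where droplets touch, Cideb rose. Cideb (ENSMUSG00000022219, chromosome 14, 55754050 to 55758458, minus strand) is the CIDE gene of healthy liver, and its protein also serves the loading of lipid onto VLDL particles. It had 52.4, 52.4 and 53.4 CPM in Alb/MDA-9 1 to 3, against 41.0, 45.1 and 39.6 CPM in WT 1 to 3. The Alb/MDA-9 libraries were close together and all above the WT libraries. The means were 52.7 ± 0.584 CPM in Alb/MDA-9 and 41.9 ± 2.87 CPM in WT (SD, n = 3 each), a fold of 1.26 (log2 change 0.33, SE 0.08, edgeR adjusted p = 0.0129). The call ended without WT 3 (edgeR adjusted p = 0.0653) and with library totals (edgeR adjusted p = 0.0722).

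The Cideb value depends on counting by strand. Its exons overlap those of Nop9 on the plus strand, so the column that ignores strand kept only 14.0% of the reads that the stranded column gave it, 714 against 5096 over the 6 libraries, because a read over both genes is given to neither. With unstranded counts the log2 change was 0.47, with a larger error (SE 0.17, edgeR adjusted p = 0.0912). Nop9 itself, read on its own strand, had 38.8 ± 3.45 CPM in Alb/MDA-9 and 38.0 ± 0.928 CPM in WT (SD, n = 3 each; log2 change 0.03, edgeR adjusted p = 0.860). For the other 9 members the unstranded column held no fewer reads than the stranded one, and at most 109.2% of them.

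Cidec, also called Fsp27, enlarges the droplets of fat cells and of the steatotic liver. It had 8.45, 9.14 and 4.46 CPM in Alb/MDA-9 1 to 3, against 8.99, 9.79 and 8.22 CPM in WT 1 to 3. Alb/MDA-9 3 was the lowest library, and the other Alb/MDA-9 libraries lay within the WT range. The log2 change was -0.29 with a 95% interval of -0.77 to 0.19 (edgeR adjusted p = 0.432), and -0.04 without Alb/MDA-9 3. Cidea, the CIDE gene of brown fat, had 6.68 ± 0.513 CPM in Alb/MDA-9 and 5.38 ± 0.637 CPM in WT (SD, n = 3 each; edgeR adjusted p = 0.253). Per kb, Cideb held 78.1% ± 3.35 of the sum of the CIDE genes in Alb/MDA-9 and 74.4% ± 0.973 in WT (SD, n = 3 each; exact permutation p = 0.1, adjusted 0.15).

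None of the genes of the lipase step passed the test. Pnpla2 (ENSMUSG00000025509, chromosome 7, 141455198 to 141460743) encodes ATGL, which removes the first fatty acid from triglyceride. It had 70.8, 69.9 and 80.3 CPM in Alb/MDA-9 1 to 3, against 63.2, 64.2 and 61.8 CPM in WT 1 to 3. All Alb/MDA-9 libraries were above the WT libraries, yet the log2 change of 0.22 (95% interval 0.06 to 0.39) missed the threshold over all genes (edgeR adjusted p = 0.0716, and 0.0702 to 0.357 over the other settings except the test against a fold of 1.5).

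G0s2, whose small protein binds and inhibits ATGL, was a low-count gene with 152 reads in Alb/MDA-9 and 141 in WT. It had 3.09, 3.09 and 2.59 CPM in Alb/MDA-9 1 to 3, against 1.97, 2.72 and 2.90 CPM in WT 1 to 3. The genotypes overlapped (log2 change 0.21, 95% interval -0.33 to 0.76, edgeR adjusted p = 0.622). The ratio of G0s2 to Pnpla2 per kb was 0.139 ± 0.0234 in Alb/MDA-9 and 0.139 ± 0.0281 in WT (SD, n = 3 each; exact permutation p = 1). Abhd5, which encodes CGI-58, the co-activator of ATGL, had 49.1 ± 4.21 CPM in Alb/MDA-9 and 48.6 ± 1.32 CPM in WT (SD, n = 3 each; log2 change 0.01, 95% interval -0.16 to 0.19, edgeR adjusted p = 0.932).

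Pnpla3, a droplet-bound relative of ATGL that insulin and sugar induce in liver, was the least abundant of the 10. It had 20, 20 and 25 reads in Alb/MDA-9 1 to 3, against 19, 14 and 10 reads in WT 1 to 3. On the CPM scale these were 1.11, 1.16 and 1.51 in Alb/MDA-9 and 0.959, 0.718 and 0.592 in WT, without overlap. The log2 change of 0.72 was the largest among the members, but its 95% interval ran from -0.08 to 1.52 (edgeR adjusted p = 0.226). At this depth the interval spans both no change and a change larger than that of Plin2. Exons of Pnpla3 overlap those of Gm49513 on the same strand, which had 0 reads in every library. A read over both genes is given to neither, so the Pnpla3 count may be understated.

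Dgat2 was the only member called lower. Dgat2 (ENSMUSG00000030747, chromosome 7, 99153658 to 99182719, minus strand) encodes the acyltransferase that joins the last fatty acid to diacylglycerol, above all for newly made fatty acids in liver. It had 37.6, 37.0 and 39.1 CPM in Alb/MDA-9 1 to 3, against 50.5, 47.3 and 48.2 CPM in WT 1 to 3. No library of Alb/MDA-9 reached the lowest WT library. The means were 37.9 ± 1.06 CPM in Alb/MDA-9 and 48.7 ± 1.67 CPM in WT (SD, n = 3 each), a fold of 0.778 (log2 change -0.36, SE 0.07, edgeR adjusted p = 0.00633). The call held without any single library, with edgeR adjusted p from 0.00369 to 0.0322. Dgat1, the other enzyme for this step, had 17.8 ± 2.04 CPM in Alb/MDA-9 and 18.7 ± 1.02 CPM in WT (SD, n = 3 each; log2 change -0.07, 95% interval -0.32 to 0.18, edgeR adjusted p = 0.731). The ratio of Dgat2 to Dgat1 per kb was 2.13 ± 0.192 in Alb/MDA-9 and 2.59 ± 0.115 in WT, without overlap (SD, n = 3 each; exact permutation p = 0.1, adjusted 0.15).

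**Figure D3:**
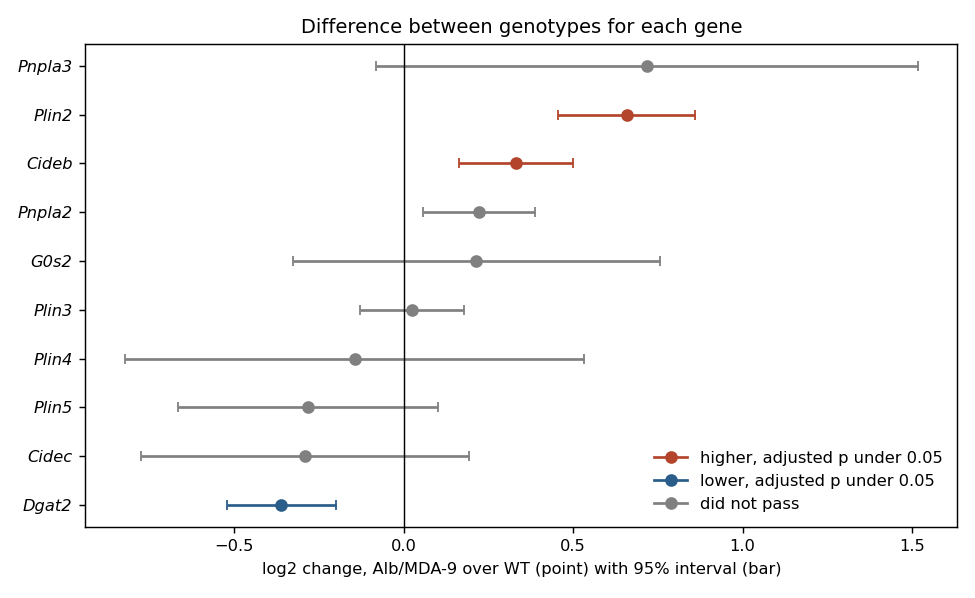
Log2 change of each gene, Alb/MDA-9 over WT (horizontal axis), with its 95% interval from the edgeR fit; red marks genes called higher, blue lower and grey not called at an adjusted p under 0.05. Plin2 and Cideb lie right of 0 and Dgat2 left of it, and the interval of Pnpla3 is the widest, from -0.08 to 1.52.

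Ordered by level per kb of exon, the 10 genes ran in the same order in both genotypes. Plin2 was highest, at 197 ± 26.8 CPM per kb in Alb/MDA-9 and 124.6 ± 5.59 in WT (SD, n = 3 each). Plin3 came next at 41.2 ± 2.26 in Alb/MDA-9 and 40.5 ± 1.54 in WT, and Cideb stood at 35.4 ± 0.392 in Alb/MDA-9 and 28.2 ± 1.93 in WT. Pnpla2 had 24.4 ± 1.92 CPM per kb in Alb/MDA-9 and 20.9 ± 0.409 in WT, and Dgat2 had 12.3 ± 0.343 in Alb/MDA-9 and 15.8 ± 0.542 in WT. Cidec, G0s2, Plin5, Plin4 and Pnpla3 followed, all under 5 CPM per kb on average. The libraries of neighbours in this order did not overlap, except Cidec with G0s2 and Plin4 with Pnpla3 in Alb/MDA-9 and G0s2 with Plin5 in WT. Exon lengths are the union of all annotated exons, so a gene read mostly from a short isoform has its level understated.

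**Figure D4:**
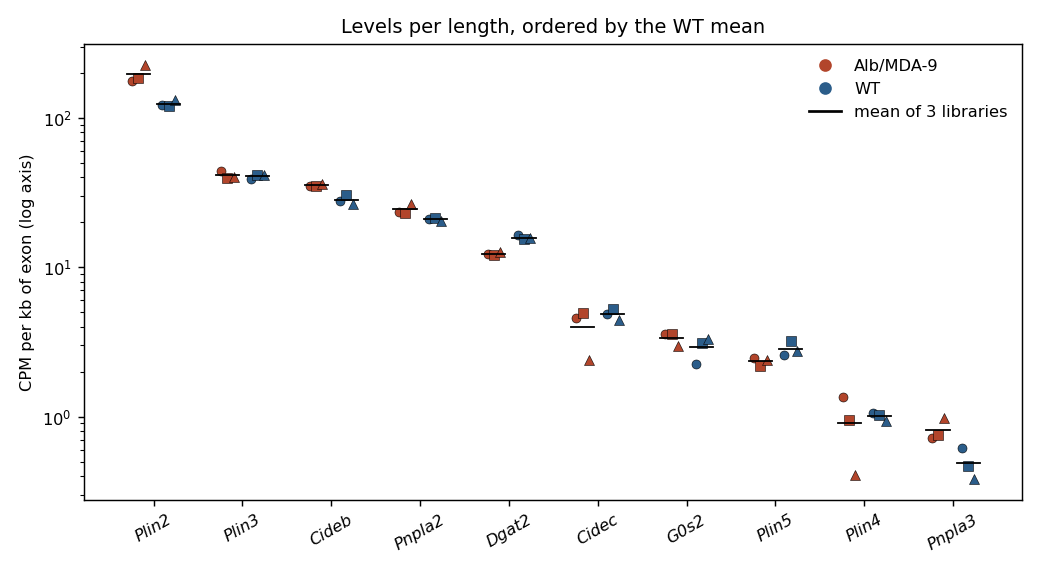
CPM per kb of exon (vertical log axis) for the 10 genes ordered by their WT mean, with Alb/MDA-9 left of WT for each gene; symbols are libraries and lines the means of 3. The order is the same in both genotypes, from Plin2 at 197 CPM per kb in Alb/MDA-9 and 124.6 in WT down to Pnpla3 at 0.813 in Alb/MDA-9 and 0.489 in WT.

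Other genes of droplet coat and assembly moved both ways. Of 15 tested, 3 rose, 1 fell and 11 did not pass, with a median log2 change of 0.01. The share called was 26.7%, beside 14.4% of all genes tested. Hsd17b13, a droplet-bound enzyme of the liver, had 402, 419 and 278 CPM in Alb/MDA-9 1 to 3, against 65.7, 69.9 and 76.3 CPM in WT 1 to 3 (log2 change 2.37, SE 0.14, edgeR adjusted p = 2.98e-07). It kept its call in all 16 other settings. Its neighbour Hsd17b11, also on droplets, had 55.6 ± 4.51 CPM in Alb/MDA-9 and 43.7 ± 1.48 CPM in WT (SD, n = 3 each; edgeR adjusted p = 0.0122, lost without WT 2 and with library totals). Acsl3, the acyl-CoA synthetase of nascent droplets, rose to 49.7 ± 4.39 CPM in Alb/MDA-9, against 31.2 ± 5.15 CPM in WT (SD, n = 3 each; log2 change 0.67, edgeR adjusted p = 0.00203). Fitm2, which helps droplets bud from the endoplasmic reticulum, fell to 35.9 ± 2.38 CPM in Alb/MDA-9, against 43.4 ± 0.693 CPM in WT (SD, n = 3 each; edgeR adjusted p = 0.0366), a call lost with DESeq2 (adjusted p = 0.0505) and without Alb/MDA-9 2, Alb/MDA-9 3, WT 1, WT 2 or WT 3. Without WT 2 the list held 2 calls.

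Other genes of triglyceride synthesis, Dgat1 included, were called in both directions. Of 13 tested, 1 rose, 3 fell and 9 did not pass, with a median log2 change of 0.01. The share called was 30.8%, beside 14.4% of all genes tested. Gpam, the mitochondrial acyltransferase of the first step, had 254 ± 30.03 CPM in Alb/MDA-9 and 197 ± 5.48 CPM in WT (SD, n = 3 each; log2 change 0.37, edgeR adjusted p = 0.0132, lost without Alb/MDA-9 2, WT 1 or WT 2). Gpat3, the counterpart in the endoplasmic reticulum, fell to 12.7, 14.2 and 14.0 CPM in Alb/MDA-9 1 to 3, against 25.7, 24.6 and 23.1 CPM in WT 1 to 3 (log2 change -0.85, SE 0.10, edgeR adjusted p = 0.000197). Of the 3 lipins, phosphatases that make diacylglycerol, Lpin2 fell, with 324, 282 and 241 CPM in Alb/MDA-9 1 to 3, against 417, 407 and 422 CPM in WT 1 to 3 (log2 change -0.56, edgeR adjusted p = 0.00192). Lpin1 fell to 54.1 ± 12.2 CPM in Alb/MDA-9, against 75.9 ± 2.04 CPM in WT (SD, n = 3 each; edgeR adjusted p = 0.0256, lost without WT 1, WT 2 or WT 3), and Lpin3 had 33.9 ± 4.63 CPM in Alb/MDA-9 and 33.6 ± 1.13 CPM in WT (SD, n = 3 each; log2 change 0.01, 95% interval -0.21 to 0.23, edgeR adjusted p = 0.954). Without WT 1 or without WT 2 the list held 2 calls.

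Of 17 other genes of triglyceride and lipid breakdown, 0 were called by edgeR, DESeq2 or voom, and 2 had an unadjusted p under 0.05. These were Aadac, at 73.5 ± 12.7 CPM in Alb/MDA-9 and 59.5 ± 6.26 CPM in WT, and Ddhd2, at 23.3 ± 1.02 CPM in Alb/MDA-9 and 27.1 ± 1.30 CPM in WT (SD, n = 3 each), named after their values were seen. Aadac was called without Alb/MDA-9 3. Of all 13296 genes tested, edgeR called 14.4%, and 3713 had an unadjusted p under 0.05. The carboxylesterase genes of this list (Ces1 and Ces3) belong to families of close relatives, between which reads may be lost.

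**Figure D5:**
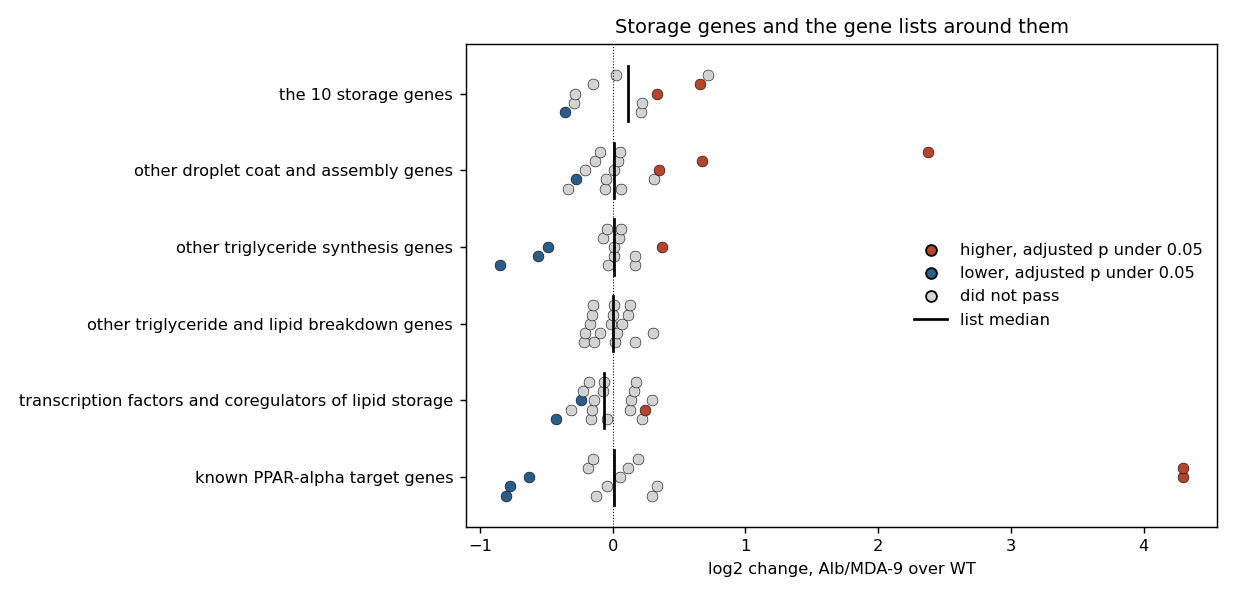
Log2 change, Alb/MDA-9 over WT (horizontal axis), of every tested gene in the 10 storage genes and in 5 lists around them (rows); red marks genes called higher, blue lower, grey not called, and the black lines the list medians. The medians lie between -0.07 and 0.12, and the points furthest out are Cyp4a10 and Cyp4a14 at 4.29 and 4.30 and Hsd17b13 at 2.37.

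Of 18 transcription factors and coregulators of lipid storage, 1 was called higher and 2 lower, beside a median of -0.07 on the log2 scale. The share called was 16.7%, near the 14.4% of all genes tested. Ppara, which encodes the nuclear receptor that drives fat burning and induces Plin2, had 21.7 ± 2.04 CPM in Alb/MDA-9 and 22.8 ± 0.933 CPM in WT (SD, n = 3 each; log2 change -0.07, 95% interval -0.29 to 0.15, edgeR adjusted p = 0.705). Pparg, its relative in fat cells and steatotic liver, stood at 34 reads in Alb/MDA-9 and 41 in WT (edgeR adjusted p = 0.860). Nr1h4, which encodes the bile acid receptor FXR, fell to 39.2 ± 2.74 CPM in Alb/MDA-9, against 52.6 ± 1.78 CPM in WT (SD, n = 3 each; log2 change -0.42, edgeR adjusted p = 0.00363). Rxra, the partner of PPAR and FXR, fell to 83.6 ± 4.41 CPM in Alb/MDA-9, against 98.8 ± 0.372 CPM in WT (SD, n = 3 each; log2 change -0.24, edgeR adjusted p = 0.0356, lost without Alb/MDA-9 2, WT 1, WT 2 or WT 3). Insig1, which holds back SREBP, was called higher (log2 change 0.24, edgeR adjusted p = 0.0484) and kept that call in 4 of 16 other settings. The list held 6 calls without Alb/MDA-9 1 and 1 call without Alb/MDA-9 2, WT 1, WT 2 or WT 3.

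Of 14 tested genes known as targets of PPAR-alpha, 2 were called higher and 3 lower, beside a median of 0.01 on the log2 scale. The share called was 35.7%, beside 14.4% of all genes tested, in a list chosen with earlier results of these data known. The rises were in the fatty acid hydroxylase genes Cyp4a10, with 43.2, 40.5 and 36.7 CPM in Alb/MDA-9 1 to 3, against 2.78, 1.59 and 1.72 CPM in WT 1 to 3, and Cyp4a14 (log2 change 4.30, edgeR adjusted p = 2.72e-06), whose reads may be shared with near-identical family members. Vnn1, the pantetheinase gene, and Acaa1b, a peroxisomal thiolase gene named after its values were seen, fell by 0.77 and 0.63 on the log2 scale (edgeR adjusted p = 0.0378 and 0.0157). Both calls were lost without WT 1 or WT 2, and that of Vnn1 also without Alb/MDA-9 1 or Alb/MDA-9 2. The list held 8 calls without Alb/MDA-9 3 and 3 without WT 1 or WT 2.

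Called genes were counted around these genes on their chromosomes, as a description with no test. Within 5 Mb of Hsd17b13 on chromosome 5, 20 of 66 other tested genes were called (30.3%), and within 5 Mb of Gpat3, whose window overlaps that one, 21 of 51 (41.2%). Around the 10 members that share ran from 5.45% at Pnpla3 to 23.1% at G0s2, beside 14.4% of all genes, and it was 12% at Plin2 (3 of 25 genes), 13.1% at Cideb (14 of 107) and 14.3% at Dgat2 (10 of 70).

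Markers of other cell types that store or meet lipid moved in the same libraries. Of all genes tested, 7.35% were called higher and 7.09% lower. Of 12 markers of stellate cells, which hold retinyl ester droplets, and fibroblasts, 5 fell and 0 rose, and their summed level was 217 to 286 CPM in Alb/MDA-9 and 316 to 340 CPM in WT. Of 11 Kupffer cell markers 8 fell and 0 rose, with sums of 238 to 395 CPM in Alb/MDA-9 and 411 to 426 CPM in WT. Most of each sum was Cd68, which was not called. Cd68 had 322, 284 and 137 CPM in Alb/MDA-9 1 to 3, against 262, 267 and 284 CPM in WT 1 to 3. The stellate and Kupffer sums therefore do not give the level of the markers that fell. Of 9 endothelial markers 4 fell and 0 rose, with sums of 193 to 211 CPM in Alb/MDA-9 and 252 to 276 CPM in WT. Of 6 cholangiocyte markers 3 rose and 1 fell, with sums of 251 to 360 CPM in Alb/MDA-9 and 52.8 to 60.9 CPM in WT. Most of the Alb/MDA-9 sums was Spp1. It had 171, 195 and 279 CPM in Alb/MDA-9 1 to 3, against 1.36, 0.769 and 0.769 CPM in WT 1 to 3. Spp1 lies on chromosome 5 at 104435118 to 104441050, inside the 5 Mb window around Hsd17b13 described above. Whether its rise came from cholangiocytes was not tested. Of 7 adipocyte markers 2 were tested and 0 were called, and Lep and Cfd had 0 reads in all libraries. The adipocyte sums were 83.8 to 94.95 CPM in Alb/MDA-9 and 71.9 to 79.3 CPM in WT. Most of each sum was Fabp4 (edgeR adjusted p = 0.0806). Fabp4 had 82.1, 76.6 and 88.8 CPM in Alb/MDA-9 1 to 3, against 67.3, 73.5 and 71.8 CPM in WT 1 to 3. For Fabp4 and Cidea, the 2 tested, every Alb/MDA-9 library was above every WT library. In bulk samples fewer cells of a type and less RNA per cell cannot be told apart, and the part of these cells in the levels of the storage genes was not tested.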

How the data were processed

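RNA from cultured mouse hepatocytes was sequenced with a TruSeq kit on a HiSeq3000, per the labels' protocols. The submitters' processing notes name STAR 2.7.9a, Trim Galore 0.6.6, FastQC 0.11.2 and edgeR 3.18.1, with GRCm38 (mm10) as build. Neither annotation release nor options were given in the sources used here. The deposited tables hold raw read counts per gene from STAR, which counts only reads placed once and over a single gene. Of each library's reads, 9.22% to 10.4% were unmapped, 18.7% to 20.2% mapped to several places, 4.90% to 6.01% fell outside genes and 0.791% to 0.835% over several genes; these 4 rows were left out. The reverse-strand column held 96.9% to 97.2% of the stranded reads and was used.

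Names, coordinates and exon lengths came from GENCODE M21 (GRCm38), which held 55227 of 55487 identifiers, and promoter windows from RefSeq. Genes were filtered with filterByExpr (minimum count 10), scaled by TMM and tested with edgeR 4.0.16 in R 4.3.3 (quasi-likelihood F test, no covariate, 4 residual degrees of freedom), with p-values adjusted over all 13296 genes. The 95% intervals use the same fit. Levels are TMM-scaled CPM. DESeq2 1.42.0 and limma 3.58.1 served alternatives. Copies of transcripts were sought with BLAST 2.17.0 (at least 95% identity over 100 bases). Beyond the 10 members, each list names up to 4 called genes of largest change with a mean of at least 1 CPM, with Abhd5, Dgat1, Ppara and Pparg. Members and lists were chosen with earlier results of these data known. A planned comparison of protein sequences was not made. One called gene of the PPAR-alpha target list is not reported here by name.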

Additional observations from a re-analysis of the deposited data

How the results depend on the processing

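Of the 3 called members, Dgat2 and Plin2 kept direction and call in 15 of 16 alternatives and Cideb in 12; the other 7 were called in none of them, Pnpla3 being untested at a minimum count of 50. The test against a fold of 1.5 called 0 members, 240 of all genes, 1 droplet coat and assembly gene, 0 triglyceride synthesis genes, 0 transcription factors and 2 PPAR-alpha targets, and ended the calls of Plin2, Cideb and Dgat2. That test asks for a larger change by construction; for the other settings the cause was not tested. Library totals, which move the all-gene median by -0.10 (log2), called 1 breakdown gene and 5 transcription factors (0 higher, 5 lower) and split all genes into 525 higher and 1622 lower; upper-quartile factors gave 722 and 1087. Without a low-count filter 1 breakdown gene was called, and voom with quality weights called 5 transcription factors. The Plin3 change, never called, turned to -0.016 with upper-quartile factors, -0.081 with library totals and -0.0020 with voom, and ranged from -0.022 (without Alb/MDA-9 1) to 0.048 (without Alb/MDA-9 2) on leaving out a library; without WT 1 it was -0.0076. That of Plin4 ranged from -0.56 (without Alb/MDA-9 1) to 0.20 (without Alb/MDA-9 3). Leaving out each library in turn gave 1018 to 2386 genes called of all, 2 to 3 members, 2 to 4 droplet coat and assembly genes, 2 to 4 synthesis genes, 0 to 1 breakdown genes, 1 to 6 transcription factors and 3 to 8 PPAR-alpha targets. Same-numbered libraries did not deviate together over the tested genes (r = -0.04, -8.73e-05 and -0.06). That does not tell how libraries were prepared, so any pairing stays unknown. With the replicate block 1601 genes, 3 members and 1 transcription factor were called. Of the named genes' calls, those of Fitm2, Rxra, Vnn1 and Insig1 ended with the block (edgeR adjusted p = 0.0660, 0.0663, 0.0524 and 0.0841). The fewest reads in all were those of Pnpla3, G0s2, Plin5 and Plin4, at 108, 293, 589 and 602; for Plin4 the SE was 0.31, and 0.19 without Alb/MDA-9 3.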
